A study of Mus musculus with 8 samples.

Results

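The carboxylesterase genes described here were the 10 rows of the deposited gene table whose symbols are Ces1b, Ces1c, Ces1d, Ces1e, Ces1f, Ces1g, Ces2a, Ces2e, Ces3a and Ces3b, out of 17810 genes in all. They were taken by name, but the set was chosen with earlier results of these data known. RNA-Seq libraries had been made from liver of 8 male mice, 4 WT and 4 HKO, with 1 library per mouse. HKO mice carry miR-33 alleles flanked by loxP sites and an Albumin-Cre transgene, so that Cre recombinase, driven by the albumin promoter, deletes miR-33 in hepatocytes. WT mice were littermates, and the sources do not say whether they carried the loxP alleles or Cre. All 8 mice ate chow until 8 weeks of age and then a high-fat diet without added choline (CD-HFD) for 3 months, were 5 months old, and were fasted before the end point, and no chow-fed group was compared.

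Carboxylesterases are serine hydrolases that cut ester bonds, and most of the liver enzymes sit inside the endoplasmic reticulum. In hepatocytes they hydrolyze drugs and other foreign esters, and several of them also hydrolyze triacylglycerol, diacylglycerol or cholesteryl esters, including lipid that is repackaged into VLDL. In the mouse the genes have multiplied into tandem clusters, so many paralogs stand where a human liver has few. Ces1c is a secreted form that accounts for most esterase activity in mouse plasma, whereas Ces1d, long known as triacylglycerol hydrolase, acts on stored lipid in the hepatocyte.

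The members lie in 2 tandem blocks on chromosome 8 (GRCm38, GENCODE annotation). The 6 Ces1 genes are on the minus strand within chr8:93056728-93337308, a stretch of 280.6 kb, in the order Ces1b, Ces1c, Ces1d, Ces1e, Ces1f and Ces1g. The Ces2 and Ces3 genes are on the plus strand within chr8:104734003-105093929, 359.9 kb long, and 11.4 Mb separate the blocks. Coding sequences of members of 1 subfamily were 74.5% to 95.3% identical over 17 pairs, and members of different subfamilies were 64.3% to 67.4% identical over 28 pairs. Ces3a and Ces3b are the closest pair with 95.3% identity, followed in this account by Ces1b and Ces1c (91.2%) and by Ces2a and Ces2e (83.8%).

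Likeness between paralogs matters for every value below, because a read that matches more than 1 gene was divided between them by the authors' software. Of the 75-base stretches of the Ces3a transcript 18.3% also occur in Ces3b, and of those of Ces3b 15.4% occur in Ces3a. The share was 14.8% for Ces2a (with Gm7208), 6.73% for Ces1c, 4.50% for Ces1b, 1.05% for Ces1e and 0.343% for Ces2e, and it was 0 for Ces1d, Ces1f and Ces1g. The labels also give 45 cycles, and at 45 bases the shares were larger: 33.8% for Ces3a, 28.6% for Ces3b, 25.3% for Ces2a, 19.7% for Ces1c, 14.2% for Ces1b, 4.22% for Ces2e, 3.70% for Ces1e, and 1.99% to 2.13% for Ces1d, Ces1f and Ces1g. The deposited values of Ces1d and Ces1f were whole numbers in all 8 livers, and those of the other 8 genes were fractional in at least 1 liver. The 60 bases below show how reads can still be assigned within the closest pair. They were picked as the coding stretch of this length, inside 1 exon, with the most differing bases. They are from exon 6 of 13, coding bases 758 to 817 of both genes, at chr8:105051766-105051825 for Ces3a and chr8:105086856-105086915 for Ces3b, plus strand, with capitals at the 13 bases that differ. Over the whole coding sequence of 1716 bases 81 bases differ.
Ces3a: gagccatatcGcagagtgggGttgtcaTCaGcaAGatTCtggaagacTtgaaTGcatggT
Ces3b: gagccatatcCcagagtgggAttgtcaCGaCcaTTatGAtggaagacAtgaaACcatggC

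The deleted microRNA was searched for in the members because its seed pairs with messenger RNAs. The mature strand, at chr15:82198127-82198147 (plus strand, RefSeq), is shown with its seed, bases 2 to 8, in capitals.
miR-33-5p: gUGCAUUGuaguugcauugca
The 7-base words that match this seed, CAATGCA and AATGCAA, were found in 0 of the 10 members when the longest annotated 3' untranslated region of each was read, from 150 bases in Ces1c to 958 bases in Ces2e. This says only that these letters are absent from those regions.

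RefSeq promoters, from 250 bases before to 50 bases after the start (GRCm38.p6), were matched for 7 members with 8 promoters. The promoters of Ces2a, Ces2e and Ces3b, the Ces2 genes that went opposite ways and the member with the largest change, are printed with 3 words in capitals on either strand: the TATA word (TATAAA), the CAAT word (CCAAT) and the GC word (GGGCGG). They lie at chr8:104733753-104734052, chr8:104926010-104926309 and chr8:105083505-105083804, plus strand.
Ces2a: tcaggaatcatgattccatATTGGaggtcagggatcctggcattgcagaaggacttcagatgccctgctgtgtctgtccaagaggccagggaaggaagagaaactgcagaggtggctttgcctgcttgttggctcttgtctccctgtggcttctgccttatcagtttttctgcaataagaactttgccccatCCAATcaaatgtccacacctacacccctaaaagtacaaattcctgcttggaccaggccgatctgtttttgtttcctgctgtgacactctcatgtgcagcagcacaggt
Ces2e: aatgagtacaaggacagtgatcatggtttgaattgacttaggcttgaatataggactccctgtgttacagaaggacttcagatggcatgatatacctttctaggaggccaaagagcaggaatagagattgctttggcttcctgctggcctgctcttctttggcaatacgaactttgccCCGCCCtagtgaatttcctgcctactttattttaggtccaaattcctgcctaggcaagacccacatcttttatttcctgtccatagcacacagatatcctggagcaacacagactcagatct
Ces3b: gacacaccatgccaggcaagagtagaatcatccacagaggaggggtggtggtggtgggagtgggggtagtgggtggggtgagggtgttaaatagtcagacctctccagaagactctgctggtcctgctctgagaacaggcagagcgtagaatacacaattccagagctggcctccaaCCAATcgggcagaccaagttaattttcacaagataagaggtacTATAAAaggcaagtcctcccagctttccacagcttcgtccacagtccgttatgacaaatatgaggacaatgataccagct
TATAAA was in 2 of the 8 member promoters, those of Ces3b and Ces1g, against 13.6% of all 32851 promoters of this length, and in Ces3b it is at position -30 from the start. CCAAT was in 6 of 8, against 37.4% of all, with Ces1e and Ces2e without it. The promoters of Ces1b overlap each other and hold the same CCAAT match, which is counted in both. GGGCGG was in 1 of 8, that of Ces2e, against 35.7% of all. TTCNNNGAA (8.30% of all promoters), TTGNNNCAA (5.82%) and longer words were in none of the 8. The longer words were direct repeats of AGGTCA spaced by 1 or 4 bases, its inverted repeat and a palindrome of the kind that HNF1 binds, each in at most 0.0396% of all promoters. These are matches of letters and not sites shown to be used.

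Library totals ranged from 12174339 to 18319736 estimated counts in WT livers and from 12509201 to 18735785 in HKO livers, and the members took 0.542% to 0.641% of them. Levels are given as CPM on library sizes scaled by TMM, and a floor of 3 counts, set for counting error only, corresponds to 0.16 to 0.246 CPM. The members had 644 to 41434 counts per liver. A gene is called higher or lower in HKO livers if its adjusted p in edgeR's quasi-likelihood test is under 0.05. Over all 12395 genes tested 212 were higher and 426 lower, and the median log2 fold change was 0.0092. The order numbers of the libraries ran without mixing, HKO first and WT after, so that place in this order and genotype cannot be told apart.

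HKO replicate 3 stood apart in some genes. Mup7, one of the major urinary protein genes of the hepatocyte, was at 23431 CPM in this liver and at no more than 1768 CPM in any other. Ugt2b38, a glucuronosyltransferase, was at 136 CPM against at most 3.17, and Sult1e1, estrogen sulfotransferase, at 75.8 CPM against at most 2.50. These genes were picked after their values were seen, and Mup paralogs share reads. By Dixon's test at 95% it lay far from the other 3 livers of its genotype in 177 of the tested genes, and the other livers did so in 110 to 255 genes each. Since the members also differed in HKO replicate 3, fold changes are given with and without it.

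**Figure D1:**
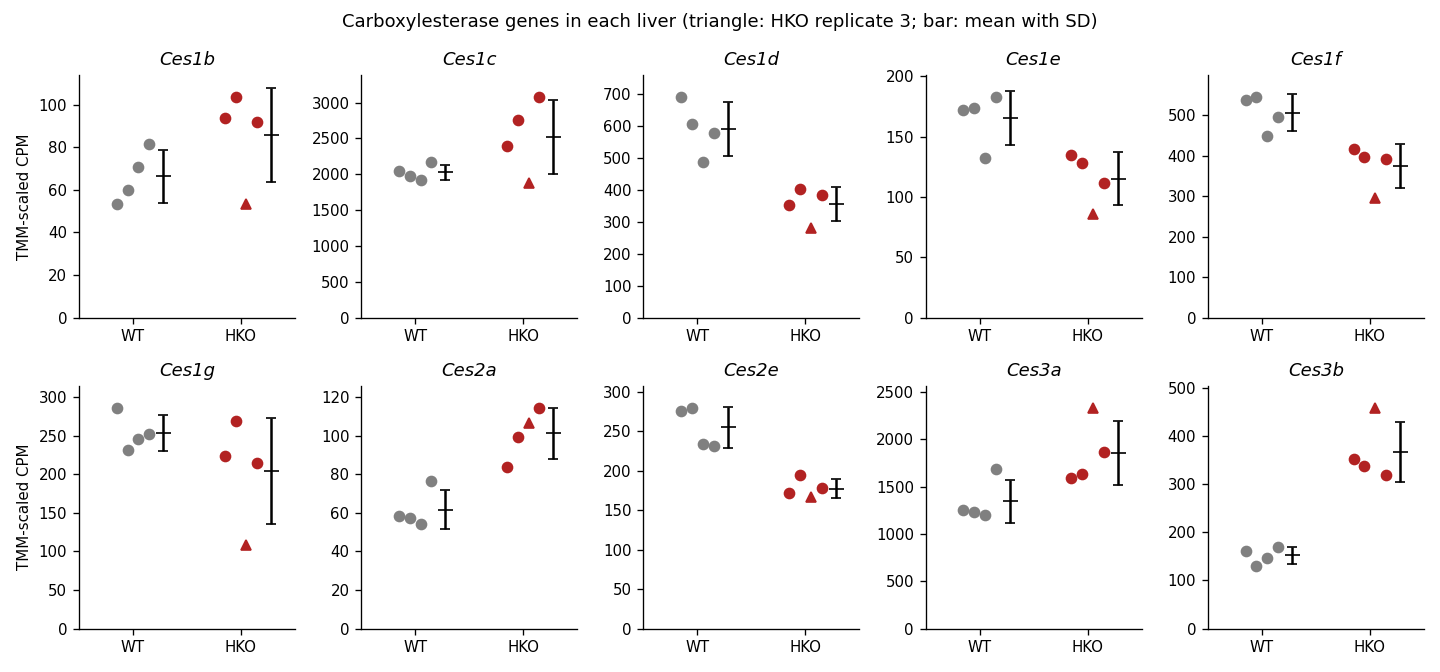
Level of each of the 10 carboxylesterase genes in TMM-scaled CPM (y axis, linear, from 0) in the 4 WT (gray) and 4 HKO (red) livers. Each point is 1 liver, the triangle is HKO replicate 3, and bars give the mean with SD. The genotypes do not overlap for Ces1d, Ces1f, Ces2a, Ces2e and Ces3b.

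Carboxylesterase genes moved in both directions in HKO livers. Ces3b rose 2.42-fold and Ces2a 1.64-fold, while Ces1d fell to 0.602 and Ces2e to 0.696 of the WT mean. The other 6 members, Ces1b, Ces1c, Ces1e, Ces1f, Ces1g and Ces3a, did not pass the test. All 10 passed the filter on low counts. Thus 2 of 10 members were called higher and 2 of 10 lower, beside 1.71% and 3.44% of all genes tested in these directions. Because the members were chosen with earlier results of these data known, this comparison of shares is not blind. Fold changes were positive for 5 members and negative for 5, with a median log2 fold change of 0.00014. All 4 calls were made again in each of the 8 fits that left out 1 liver, and in these data fewer cells of a type and less RNA per cell cannot be told apart. The study itself displays 7 of the members as genes picked on these same livers, so their direction there is not independent evidence. They are the 4 called ones and Ces1e, Ces1f and Ces3a, which did not pass the edgeR test here. With DESeq2, which called 7.67% of the 12901 genes it adjusted, 3 members were higher and 4 lower, the additional ones being Ces3a, Ces1e and Ces1f.

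Ces3b had the largest difference of the members. It was at 161, 131.02, 146 and 169 CPM in WT replicates 1 to 4 and at 352, 339, 459 and 319 CPM in HKO replicates 1 to 4. Every HKO liver lay above every WT liver, and the lowest HKO value was 319 against a highest WT value of 169 CPM. The mean rose from 152 ± 16.7 to 367 ± 62.6 CPM (SD, n = 4 per genotype), a log2 fold change of 1.28 (SE 0.12, adjusted p = 0.000372 in edgeR). Without HKO replicate 3 the log2 fold change was 1.15 (SE 0.10, adjusted p = 0.00027 in edgeR).

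Ces3a, its neighbor and near twin, was at 1257, 1237, 1197 and 1683 CPM in WT livers and at 1595, 1632, 2335 and 1863 CPM in HKO livers. WT replicate 4 was above 2 of the HKO livers, so the genotypes overlapped. The log2 fold change was 0.47 (SE 0.15), which did not pass the test (adjusted p = 0.0943 in edgeR). Left out singly, HKO replicate 3 took it to 0.34 (adjusted p = 0.214) and WT replicate 4 to 0.59 (adjusted p = 0.0306), both in edgeR. These were the lowest and highest values of the 8 fits that left out 1 liver. Only the fit without WT replicate 4 called Ces3a. DESeq2 called Ces3a higher (adjusted p = 0.0258).

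The sum of Ces3a and Ces3b does not depend on how reads were divided within the pair. It was 1418, 1368, 1343 and 1852 CPM in WT livers and 1947, 1971, 2794 and 2182 CPM in HKO livers. The lowest HKO sum was above the highest WT sum. The means were 1495 ± 240 and 2223 ± 395 CPM (SD, n = 4 per genotype), 1.49-fold apart, and 2033 CPM without HKO replicate 3. Within this sum the share of Ces3b was 11.4%, 9.58%, 10.9% and 9.11% in WT livers and 18.1%, 17.2%, 16.4% and 14.6% in HKO livers. As the reads were divided, Ces3b took a larger part of a larger total in each HKO liver. Unlike the sum, this share depends on that division. The share in HKO replicate 3 was between those of the other HKO livers.

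The 2 Ces2 members, which hydrolyze esters with small acyl groups and in part acylglycerols, went opposite ways. Ces2a was at 58.5, 57.2, 54.4 and 76.4 CPM in WT livers and at 83.8, 99.4, 107 and 114 CPM in HKO livers. The genotypes did not overlap, with WT replicate 4 the nearest to the HKO livers. The mean rose from 61.6 ± 9.98 to 101 ± 13.0 CPM (SD, n = 4 per genotype), a log2 fold change of 0.71 (SE 0.12, adjusted p = 0.00838 in edgeR) and of 0.69 without HKO replicate 3 (adjusted p = 0.022 in edgeR). Ces2a is at chr8:104734003-104741634.

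Ces2e, at chr8:104926260-104934672, was at 275, 280, 234 and 231 CPM in WT livers and at 171, 194, 166.84 and 177 CPM in HKO livers. All 4 HKO livers were below the lowest WT liver, and they were close together. The mean fell from 255 ± 26.3 to 177 ± 11.9 CPM (SD, n = 4 per genotype), a log2 fold change of −0.52 (SE 0.09, adjusted p = 0.00897 in edgeR). Without HKO replicate 3 it was −0.49 (adjusted p = 0.0225 in edgeR). Of the 4 called members Ces2e alone changed by less than 1.5-fold.

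The sum of both Ces2 genes overlapped between genotypes, at 288 to 337 CPM (WT) and 255 to 293 CPM (HKO). The mix within it did not. Ces2a made up 17.5%, 16.96%, 18.9% and 24.9% of the sum in WT livers and 32.9%, 33.9%, 39.0% and 39.2% in HKO livers. The share of Ces2a was thus a mean of 16.7 percentage points higher, in a sum that was 0.88 of the WT mean.

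Among the Ces1 genes, Ces1d, the triacylglycerol hydrolase, was the one that passed the test. It was at 691, 607, 486 and 577 CPM in WT livers and at 354, 403, 280 and 383 CPM in HKO livers. The highest HKO liver, at 403 CPM, lay below the lowest WT liver, at 486 CPM. The mean fell from 590 ± 84.7 to 355 ± 53.8 CPM (SD, n = 4 per genotype), a log2 fold change of −0.73 (SE 0.13, adjusted p = 0.00942 in edgeR), and of −0.63 without HKO replicate 3 (adjusted p = 0.0165 in edgeR). Ces1d spans chr8:93166068-93197838, and it shares 0 of its 75-base stretches and 1.99% of its 45-base stretches with other genes.

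Ces1f, another esterase described to act on triacylglycerol, was at 537, 545, 448 and 495 CPM in WT livers and at 417, 396, 296 and 392 CPM in HKO livers. The genotypes did not overlap. Its log2 fold change of −0.43 (SE 0.12) had an adjusted p of 0.0521 in edgeR, and of 0.00972 in DESeq2 and 0.0479 in limma-voom. Ces1e, known as egasyn, which holds beta-glucuronidase in the endoplasmic reticulum, was at 172, 174, 132 and 183 CPM in WT livers and at 134, 128, 85.5 and 112 CPM in HKO livers. WT replicate 3, at 132 CPM, lay below HKO replicate 1, at 134 CPM. The log2 fold change of Ces1e was −0.52 (SE 0.15), with an adjusted p of 0.0704 in edgeR and 0.015 in DESeq2.

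Ces1g, an esterase with a described part in VLDL lipid output, had the widest spread between HKO livers, relative to its mean, of the 10 members. It was at 287, 232, 245 and 252 CPM in WT livers and at 223, 270, 107.99 and 215 CPM in HKO livers. HKO replicate 3 was at 0.457 of the mean of the other HKO livers. The log2 fold change was −0.32 (SE 0.25, adjusted p = 0.554 in edgeR) and −0.10 without that liver (adjusted p = 0.68 in edgeR).

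Ces1c and Ces1b, which lie side by side at one end of the block, had positive fold changes. Ces1c was at 2044, 1976, 1923 and 2171 CPM in WT livers and at 2390, 2754, 1878 and 3080 CPM in HKO livers. HKO replicate 3 was below all 4 WT livers, and the other 3 HKO livers were above them. The log2 fold change was 0.32 (SE 0.14, adjusted p = 0.225 in edgeR), or 0.44 without HKO replicate 3 (adjusted p = 0.0561 in edgeR). Ces1b was at 53.2, 59.7, 70.9 and 81.6 CPM in WT livers and at 93.6, 104, 53.4 and 91.8 CPM in HKO livers. Here too HKO replicate 3 lay among the WT livers while the others were above all of them. The log2 fold change was 0.36 (SE 0.22, adjusted p = 0.412 in edgeR) with all livers and 0.54 (SE 0.13, adjusted p = 0.0493 in edgeR) without HKO replicate 3, so the call on Ces1b depends on that liver.

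**Figure D2:**
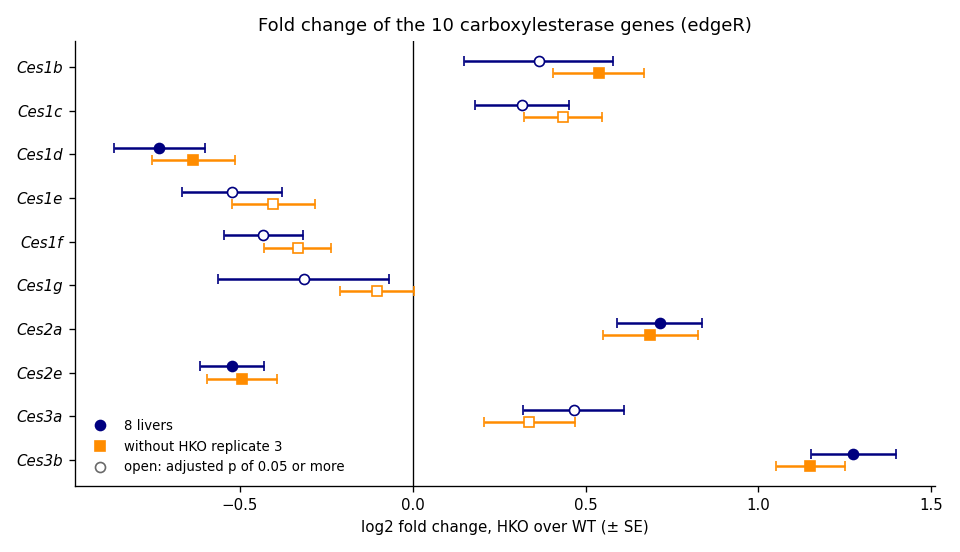
Log2 fold change of HKO over WT (x axis) with its SE for each gene (y axis), from edgeR with all 8 livers (circles) and without HKO replicate 3 (squares), filled where the adjusted p was under 0.05. Without that liver the 4 called genes stayed called and Ces1b passed the threshold at 0.54.

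HKO replicate 3 had the lowest level of all 6 Ces1 genes among the HKO livers and the highest of both Ces3 genes. Relative to the mean of the other HKO livers it was at 0.457 to 0.737 for the Ces1 genes, at 1.08 for Ces2a, at 0.922 for Ces2e, at 1.38 for Ces3a and at 1.36 for Ces3b. The same liver held the high Mup7, Ugt2b38 and Sult1e1 values given above, and the part of these in the members' values was not tested.

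The Ces1 genes differed in their mix, while their total, which was not tested, overlapped between genotypes. The sum of the 6 genes was 3783, 3594, 3305 and 3760 CPM in WT livers and 3612, 4055, 2700 and 4274 CPM in HKO livers, with means 1.01-fold apart and the WT range inside the HKO range. HKO replicate 3 had the lowest sum of all livers. Without it the HKO mean was 3980 CPM against 3610 CPM in WT livers, a log2 ratio of 0.14, and the ranges still overlapped. Ces1c made up 54.0% to 58.2% of the sum in WT livers and 66.2% to 72.1% in HKO. Ces1d made up 14.7% to 18.3% in WT and 8.96% to 10.4% in HKO livers, and Ces1f 13.2% to 15.2% in WT and 9.17% to 11.5% in HKO livers. The share of Ces1e was 4.0% to 4.86% in WT livers and 2.61% to 3.72% in HKO. Those of Ces1b (1.41% to 2.17%, and 1.98% to 2.59%) and Ces1g (6.45% to 7.57%, and 4.0% to 6.65%) overlapped. HKO replicate 3 was inside the range of the other HKO livers for the shares of Ces1c, Ces1e and Ces1f, at 69.5%, 3.16% and 10.9%. It was outside that range for the others, highest for Ces1d at 10.4% and lowest for Ces1b at 1.98% and Ces1g at 4.0%.

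**Figure D3:**
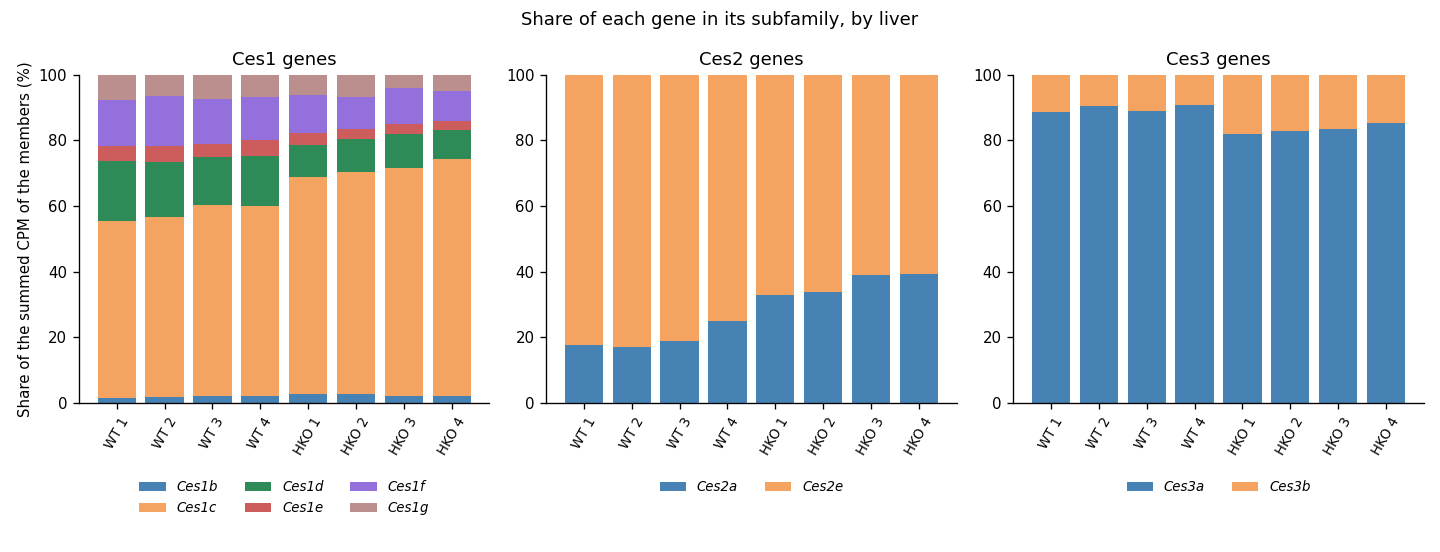
Share of each gene (color) in the summed CPM of the Ces1, Ces2 and Ces3 members (y axis, percent) in each of the 8 livers (x axis). Ces1c, Ces2a and Ces3b each take a larger share in every HKO liver than in any WT liver.

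Whether paralogs changed unequally was tested by the log2 ratio of their CPM (each plus 0.5) within each liver, a measure that library scaling barely touches. Each of the 17 pairs within a subfamily was given an exact permutation test (two-sided), whose smallest p with 4 against 4 livers is 0.0286. In 11 pairs the genotypes did not overlap and p = 0.0286 in the exact test (adjusted p = 0.0442 over the 17 pairs). The pairs share genes and are not independent. This adjusted p is under 0.05 only because many pairs tie at the smallest p, so it does not weigh any single pair. How often other pairs of genes do not overlap was not computed. The ratio of Ces2a to Ces2e differed most (exact permutation p = 0.0286). Its mean log2 value was −2.05 ± 0.32 in WT livers and −0.82 ± 0.21 in HKO livers (SD, n = 4). This p was fixed beforehand, because the levels of Ces2a and of Ces2e each separated the genotypes already, in opposite directions. For this pair the test therefore adds nothing to the calls on its genes. The log2 ratio of Ces3a to Ces3b went from 3.13 ± 0.17 to 2.33 ± 0.16 (SD, n = 4, exact permutation p = 0.0286). It depends on how reads were divided within the pair. In Ces1, all 8 ratios of Ces1b or Ces1c to Ces1d, Ces1e, Ces1f or Ces1g were higher in HKO livers, by 0.68 to 1.07 on the log2 scale. The ratio of Ces1d to Ces1f was lower by a mean of 0.30, also without overlap. Ces1b to Ces1c did not differ detectably (mean log2 ratio −4.94 in WT and −4.89 in HKO livers; exact permutation p = 0.771), nor did the 5 other pairs among Ces1d, Ces1e, Ces1f and Ces1g, with exact permutation p from 0.114 to 0.771.

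**Figure D4:**
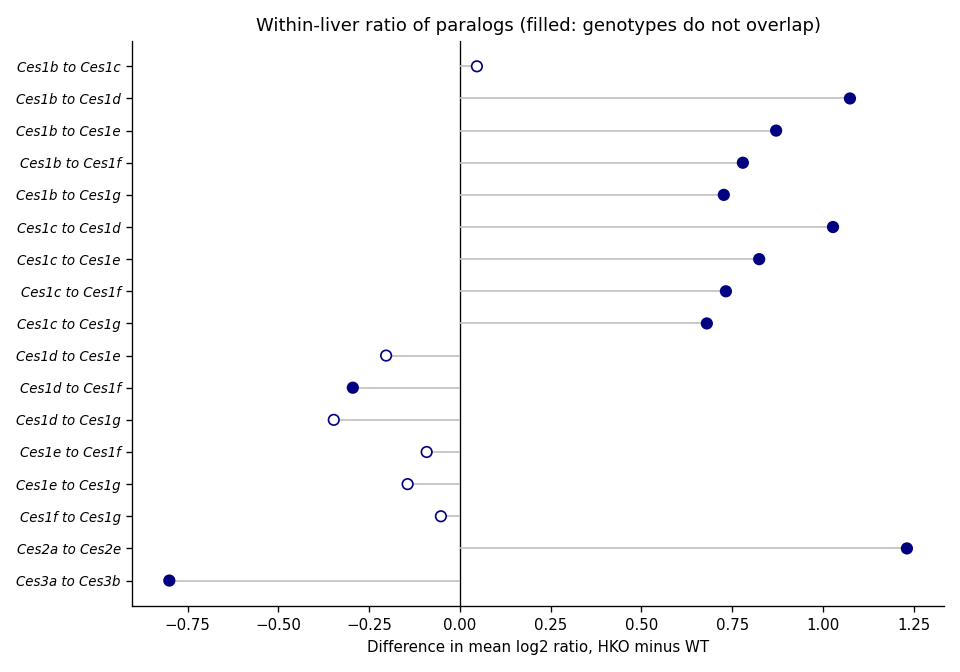
Difference between genotypes in the mean log2 ratio of 2 paralogs within a liver (x axis, HKO minus WT) for the 17 pairs of members of 1 subfamily (y axis). Filled points mark the 11 pairs whose WT and HKO livers did not overlap, with Ces2a to Ces2e at 1.23 and Ces3a to Ces3b at −0.80.

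The genotypes did not overlap at all for 2 members that were higher (Ces2a and Ces3b) and 3 that were lower (Ces1d, Ces1f and Ces2e), beside 5.36% and 7.21% of all genes tested. The other 5 members overlapped.

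Levels of different members were compared per kb of the longest annotated transcript, over all 8 livers. Ces1c was first at a mean of 1246 CPM per kb, followed by Ces3a at 782, Ces1d at 236, Ces1f at 229, Ces3b at 108.03, Ces1g at 95.9, Ces2e at 80.1, Ces1e at 67.6, Ces2a at 41.5 and Ces1b at 38.7 CPM per kb. Ces3a was above Ces1d in 8 of 8 livers with no overlap of their ranges, and Ces1c was above Ces3a in 7 of 8. The ranges of all other neighbors in this order overlapped. The order within a genotype differed: Ces3b was at 63.2 ± 6.94 CPM per kb in WT livers, below Ces2e at 94.4 ± 9.75, and at 153 ± 26.1 in HKO livers, above Ces2e at 65.7 ± 4.41 (SD, n = 4 per genotype). Similarly, Ces1d was above Ces1f in the WT means, 295 against 263 CPM per kb, and below it in the HKO means, 177 against 195 CPM per kb.

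Of 10 further carboxylesterase genes 8 were in the table, 4 had enough counts to be tested and 0 were called by edgeR or DESeq2, with 0 of them at an unadjusted p under 0.05. Ces2g was at 61.2 to 66.5 CPM in WT livers and 53.7 to 75.0 CPM in HKO, with a difference of −0.01 on the log2 scale (SE 0.10). Ces2c, an acylcarnitine hydrolase, was at 22.5 to 32.3 CPM in WT livers, and at 15.2, 23.6, 63.4 and 19.5 CPM in HKO livers. Ces2d-ps was at 1.39 to 2.09 CPM in WT livers, and at 0.434, 0.427, 2.13 and 0 CPM in HKO livers. Ces4a was at 0.698 to 1.16 CPM in WT livers, and at 1.147, 0.695, 5.97 and 0.511 CPM in HKO livers. In each of the last 3 genes the highest of all 8 livers was HKO replicate 3. Without it the log2 fold changes went from 0.22 to −0.44 for Ces2c and from 1.27 to −0.16 for Ces4a, and Ces2d-ps went from −0.98 to −2.38 (adjusted p = 0.0461 in edgeR).

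Ces2b was nearly silent in 7 livers, with 0 to 11 counts, and had 169 counts, or 9.50 CPM, in HKO replicate 3. Ces1a, Ces1h and Ces2h had at most 7, 1 and 12 counts in any liver and were too low to compare.

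**Figure D5:**
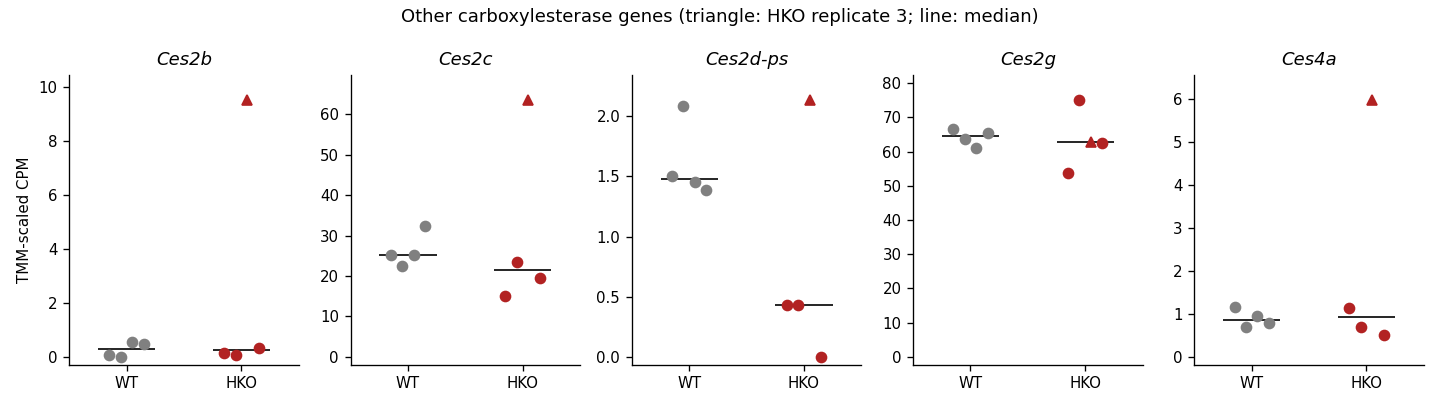
Level of 5 carboxylesterase genes outside the 10 in TMM-scaled CPM (y axis, linear) in the 4 WT (gray) and 4 HKO (red) livers, with 1 point per liver and a line at the median. HKO replicate 3 (triangle) is the highest liver for Ces2b, Ces2c, Ces2d-ps and Ces4a but not for Ces2g.

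Other genes of lipid hydrolysis were read from a list of neutral lipid hydrolases and their cofactors. Of 13 tested, 0 were called higher and 5 lower by edgeR, with a list median of −0.30 against 0.0092 for all genes. Mgll, the lipase of monoacylglycerol, fell from 280 ± 38.4 to 139 ± 5.89 CPM (SD, n = 4 per genotype; log2 fold change −1.01, adjusted p = 0.000372 in edgeR). Abhd6, another monoacylglycerol lipase, fell from 44.6 ± 3.80 to 25.4 ± 2.80 CPM (−0.82, adjusted p = 0.00123 in edgeR). Lipa, lysosomal acid lipase, fell from 380 ± 61.4 to 243 ± 33.7 CPM (−0.64, adjusted p = 0.0171 in edgeR). G0s2, an inhibitor of adipose triglyceride lipase, had a log2 fold change of −1.13 and Nceh1, a neutral cholesteryl ester hydrolase, one of −0.53, and both are named after their values were seen. In the 8 fits that left out 1 liver, Mgll and Abhd6 were called in 8, Lipa and G0s2 in 6 and Nceh1 in 1. Lipc, hepatic lipase, was at 83.9 to 106 CPM in WT and 105 to 171 CPM in HKO livers, with a log2 fold change of 0.51 that did not pass in edgeR (adjusted p = 0.0774) and did in DESeq2 (adjusted p = 0.0158). Lipe, hormone-sensitive lipase, had −0.67 on the same scale, with adjusted p = 0.0667 in edgeR and 0.0342 in DESeq2. Aadac, an arylacetamide deacetylase of the same compartment, and Pnpla2, adipose triglyceride lipase, did not pass the test (log2 fold changes of 0.30 and −0.07).

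Of 14 genes of VLDL assembly 0 were higher and 1 lower, with a list median of −0.12. Apoa4, a lipoprotein component, was at 2250, 2106, 1519 and 1212 CPM in WT livers and at 289, 475, 357 and 307 CPM in HKO livers. The groups stayed apart, and the log2 difference was −2.31 (SE 0.23, adjusted p = 0.00141 in edgeR). Mttp, the transfer protein that loads lipid onto apolipoprotein B, had a log2 fold change of −0.17 and Apob itself one of −0.11, and neither passed the test.

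Of 12 regulators described for carboxylesterase genes or hepatocyte genes in general, 1 was higher and 2 lower, with a list median of 0.04. Hnf4a, a nuclear receptor of hepatocyte identity, went from 446 ± 16.8 to 572 ± 56.7 CPM (SD, n = 4 per genotype; log2 fold change 0.36, adjusted p = 0.0442 in edgeR). Ppara, the fatty acid sensor, went from 671 ± 9.52 to 536 ± 35.1 CPM (−0.33, adjusted p = 0.0409 in edgeR). Nfe2l2, the oxidative stress factor NRF2, went from 130 ± 11.7 to 103 ± 3.10 CPM (−0.34, adjusted p = 0.0321 in edgeR). None of the 3 overlapped between genotypes, but with 1 liver left out Ppara was called in 0 of 8 fits (adjusted p from 0.0526 to 0.132 in edgeR), and Hnf4a and Nfe2l2 in 1 of 8 each. Nr1i2 and Nr1i3, the xenobiotic receptors PXR and CAR, had log2 fold changes of −0.24 and −0.11 and did not pass the test. These uncalled genes, like Lipc, Lipe, Aadac, Pnpla2, Mttp, Apob and Afmid, are named after their values were seen. Of 6 other esterases tested Bche, butyrylcholinesterase, alone was called, at −0.48 (adjusted p = 0.0468 in edgeR, and called in 1 of 8 fits that left out 1 liver), with a list median of −0.08. Afmid, a formamidase, had a log2 fold change of 0.45 with adjusted p = 0.072 in edgeR and 0.0226 in DESeq2.

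Markers of liver cell types were read beside these values. Of 9 hepatocyte markers 2 were higher (Fgb and Hnf4a) and 0 lower, and their summed level was 80956 to 116422 CPM in WT livers and 69699 to 123161 CPM in HKO, lowest in HKO replicate 3. Of 8 stellate cell and fibroblast markers 0 were higher and 2 lower (Col1a1 and Col3a1), with sums of 395 to 554 CPM in WT livers and 317 to 437 CPM in HKO. No tested marker of cholangiocytes (3), macrophages (7), sinusoidal endothelial cells (6) or leukocytes (3) was called, and their sums were at most 51.2, 230.1, 205 and 17.3 CPM in WT livers and 112, 217, 226 and 20.99 CPM in HKO livers. No defining marker of these lists that is in the table was at 0 in all 8 livers. The part of cell composition in the members' values was not tested.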

How the data were processed

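RNA was measured in 1 library from each of 8 livers (4 WT, 4 HKO), with genotype and replicate number taken from the labels. The descriptions of the 4 WT libraries all begin with the same number, whereas their titles and column names each begin with a different one. Titles and column names were followed, so that each WT library was taken as a separate mouse. The authors deposited estimated counts per gene, made, per the labels and the table, with STAR and Partek's expectation-maximization method, without normalization. Of these values 83.9% are whole to within 0.001. The genome build is not given in the sources used here, and coordinates were compared with GRCm38. Per the labels rRNA was depleted and a small RNA kit was used, with 45 cycles beside 75-base reads, so the kind of library and read length are uncertain.

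Estimated counts were rounded and fitted over the whole table with edgeR 4.0.16 in R 4.3.3, using TMM scaling, the default filter (minimum count 10), robust dispersions and the quasi-likelihood test of genotype alone, with Benjamini-Hochberg adjustment over 12395 genes. SE is the absolute log2 fold change over the square root of F. With 1 library per mouse, p-values weigh the difference between genotypes against the variation between these mice. Other settings tried were limma-voom (limma 3.58.1), DESeq2 1.42.0, scaling by total count or RLE, a filter of 10 counts in all livers or none, a replicate block, an added threshold of 1.5-fold, pseudocounts of 0.1 and 1 CPM for ratios, and each liver left out in turn. Permutation tests used Python 3.11.15 and scipy 1.17.1. The models were tested on a single set of simulated counts with 200 changed genes. Unchanged genes made up 8.11% of the calls of edgeR, 16.5% of those of DESeq2 and 7.18% of those of limma-voom. Of genes changed by 1 on the log2 scale, DESeq2 recovered 81%, edgeR 75% and limma-voom 72%. Of those changed more, each recovered 95% or 96%. How the models do at smaller fold changes, such as those of Ces1e, Ces1f and Ces3a, was not tested. Calls made by DESeq2 alone are to be read with these shares and this limit in mind. Totals of 12174339 to 18735785 counts put 3 counts at 0.16 to 0.246 CPM.

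The replicate numbers 1 to 4 belong to different mice, and same-numbered WT and HKO livers deviated together with correlations of -0.15 to 0.01, so the numbers were not taken to pair them. Named were all 10 members, the other carboxylesterase genes in the table and, of each further list, at most the 3 called genes with the smallest adjusted p, or genes the study shows. Outside this rule G0s2, Nceh1, Lipc, Lipe, Aadac, Pnpla2, Mttp, Apob, Nr1i2, Nr1i3 and Afmid were named after their values were seen. The members and lists were chosen with earlier results of these data known. 0 columns were left unmapped. The expression of Mir33 and the protein sequences were not analysed here.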

Additional observations from a re-analysis of the deposited data

Results flagged for a closer look

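In 78 groups of 4 livers (the members, other carboxylesterase genes, the named list genes, subfamily sums and library totals), 9 held a liver far from the other 3 by Dixon's test at 95%, where chance gives about 3.9. Ces3a in WT replicate 4 was at 1683 CPM, with the other WT livers at 1197 to 1257 CPM. The sum of Ces3a and Ces3b in the same liver was 1852 CPM, against 1343 to 1418 CPM. Ces2d-ps in WT replicate 2 was at 2.09 CPM, against 1.39 to 1.501 CPM, all of them few counts. Ces2b in HKO replicate 3 was at 9.50 CPM, with the other HKO livers at 0.0772 to 0.341 CPM. Ces4a in HKO replicate 3 was at 5.97 CPM, against 0.511 to 1.15 CPM. Mgll in HKO replicate 3 was at 148 CPM, against 135 to 137 CPM, all below the lowest WT liver at 248 CPM. Hnf4a in WT replicate 3 was at 471 CPM, against 435 to 441 CPM, all below the lowest HKO liver at 499 CPM. Mttp in WT replicate 1 was at 640.4 CPM, against 563 to 576 CPM. Nr1i2 in WT replicate 2 was at 68.1 CPM, against 51.7 to 53.4 CPM.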

How the results depend on the processing

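The 4 calls on members (Ces1d, Ces2a, Ces2e and Ces3b) were made again, in the same direction, under DESeq2, limma-voom, RLE and total count scaling, both other filters, the replicate block and each liver left out. Requiring a fold change above 1.5 kept 371 of 638 genes called, and 1 lower member. DESeq2 called 989 genes, and leaving out 1 liver gave 222 (without WT replicate 2) to 599 (without WT replicate 4), with 293 without WT replicate 1 and 369 without HKO replicate 4. Lower members numbered 4 with DESeq2, total count scaling and the replicate block, and 2 to 4 with 1 liver left out (4 without WT replicate 3). Called genes of the further lists numbered 10, and 3 to 9 with 1 liver left out, with 3 without WT replicate 2, 4 without WT replicate 1 or HKO replicate 4, 5 without HKO replicate 2 and 6 without WT replicate 3. Total count scaling moved the median of all genes to −0.08.

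Some uncalled members passed the threshold under other settings. Ces1e did at −0.52 with DESeq2 and −0.60 with total count scaling, and without 1 liver ranged from −0.62 (called without WT replicate 3) to −0.40. Ces1f did at −0.43 with DESeq2, −0.44 with at least 10 counts in every liver, −0.44 with limma-voom, −0.43 with no filter and −0.51 with total count scaling, and ranged from −0.49 to −0.33 without 1 liver (called without HKO replicate 1 or WT replicate 3). Ces3a did at 0.47 with DESeq2, and ranged from 0.34 to 0.59 (called without WT replicate 4). Ces1b ranged from 0.26 to 0.54, called only without HKO replicate 3.

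With the replicate block 470 genes were called, Ces1e at −0.53 (adjusted p = 0.0196) and Ces1f at −0.44 (adjusted p = 0.034) passed in edgeR, and no other member's call changed. Since the numbers do not pair the livers, this is no measure of effect size.

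Signs turned only for genes that were not called. Leaving out 1 liver at a time gave −0.44 (without HKO replicate 3) to 0.45 for Ces2c, −0.16 (without HKO replicate 3) to 1.57 for Ces4a, −0.10 to 0.059 (without HKO replicate 1) for Ces2g (0.0051 without WT replicate 1) and −0.18 to 0.042 (without WT replicate 2) for Pnpla2. The causes were not tested. The ratio result stayed at 11 pairs with pseudocounts of 0.1 and 1 CPM. The sum of Ces1 genes changed sign between settings, from −0.06 to 0.14 as a log2 ratio of means, and the Ces2 and Ces3 sums did not. At these depths genes under about 10 counts, such as Ces1a and Ces1h, could not be compared.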
